A study of Mus musculus with 8 samples.

Results

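The 4 genes described here encode connexins of the epidermis: Gjb2, Gjb6, Gjb5 and Gja1. They were chosen by gene symbol from a deposited table of 19457 genes, and all 4 have a row and passed the filter on low values that left 11870 genes for testing. The table holds RNA sequencing of cultured keratinocytes, the main cell type of the epidermis, taken as primary cells from mouse skin and harvested before confluence. There were 4 HdR libraries, from mice with the HOIL1 ΔRING1 allele, and 4 WT libraries. HOIL1, the product of Rbck1, belongs to LUBAC, the ligase complex that makes linear ubiquitin chains, and the allele is named for loss of its first RING domain. No treatment is named for either genotype. Strain, age, sex, zygosity and any limit of the allele to some cells are not given in the sources used here, and neither is the number of mice or cultures behind each genotype, so the p-values measure the spread between these libraries, which may be technical.

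Connexins are membrane proteins that assemble into hemichannels. A hemichannel docks with one of the neighbouring cell to form a gap junction, through which ions and small metabolites pass directly between cells. Gjb2 encodes Cx26, Gjb6 Cx30 and Gjb5 Cx31.1, all of the beta group, and Gja1 encodes Cx43 of the alpha group. In the epidermis, connexins are made in layer-dependent combinations, and Cx43 is the widespread one. In human skin Cx26 and Cx30 are scarce between hair follicles and rise in wounds and in psoriatic plaques. Human GJB2 variants cause deafness, some with keratoderma, and human GJB6 variants cause a hidrotic ectodermal dysplasia.

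The values are coverage: aligned bases summed over each gene, here scaled for library depth and written as aligned bases per Mb of library. HdR libraries held 2.31 to 4.31 Gb of aligned bases and WT libraries 4.78 to 5.43 Gb, so every HdR library was the shallower and depth cannot be told apart from genotype. Even so, 9695 to 17165 read-pair equivalents (302 bases each) lay behind Gjb2 in HdR libraries and 24091 to 25756 in WT libraries, and for Gjb5, the least covered of the 4, 238 to 391 and 353 to 494. Rbck1, whose allele defines the groups, had 41.1 to 45.2 aligned bases per Mb in HdR and 84.5 to 91.5 in WT. WT 4 was the WT library nearest to HdR for Gjb2 and Gjb6, and WT 3 for Gjb5 and Gja1. With the mean of WT 1 to 3 set at 0 and the HdR mean at 1, the log2 level of WT 4 lay at 0.70 for Gjb6, 0.46 for Gjb5, 0.33 for Gjb2 and -0.12 for Gja1. Each gene's difference is given with and without WT 4, and those of Gjb5 and Gja1 also without WT 3.

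In the GRCm38 genome (GENCODE vM21) Gjb2 (chromosome 14, 57098600 to 57104702) and Gjb6 (chromosome 14, 57123303 to 57133611) both lie on the minus strand, 18600 bases apart, with the annotated gene Gm4491 between them. Gjb5 (chromosome 4, 127354809 to 127358181) is also on the minus strand. Gja1 (chromosome 10, 56377330 to 56402513) is on the plus strand, away from the others. None of them overlaps another annotated gene. The longest identical stretch between any pair of their reference transcripts was 20 bases, for Gjb2 and Gjb6, far below the read length of 151 bases.

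The sequences upstream of the 4 transcription starts are shown because Gjb2 and Gjb6, which lie near each other, were both lower in HdR while Gjb5 was higher. They are the 250 bases before each RefSeq start (GRCm38.p6), 5′ to 3′ on the gene's strand, at chr14:57104703-57104952 for Gjb2, chr14:57133612-57133861 for Gjb6, chr4:127358165-127358414 for Gjb5, all minus, and chr10:56377050-56377299 for Gja1, plus. Capitals mark matches on either strand to the GC box (GGGCGG), the AP-1 site (TGANTCA), the TATA box (TATAAA) and the NF-κB consensus.
Gjb2: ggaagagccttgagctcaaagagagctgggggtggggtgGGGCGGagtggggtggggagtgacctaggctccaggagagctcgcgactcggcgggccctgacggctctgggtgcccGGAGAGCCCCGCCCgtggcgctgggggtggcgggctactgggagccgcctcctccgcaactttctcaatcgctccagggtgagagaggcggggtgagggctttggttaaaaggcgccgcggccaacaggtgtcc
Gjb6: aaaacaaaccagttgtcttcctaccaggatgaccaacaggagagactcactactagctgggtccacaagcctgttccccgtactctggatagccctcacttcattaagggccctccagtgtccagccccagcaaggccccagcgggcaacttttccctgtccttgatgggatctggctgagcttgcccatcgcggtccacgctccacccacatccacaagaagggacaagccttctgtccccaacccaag
Gjb5: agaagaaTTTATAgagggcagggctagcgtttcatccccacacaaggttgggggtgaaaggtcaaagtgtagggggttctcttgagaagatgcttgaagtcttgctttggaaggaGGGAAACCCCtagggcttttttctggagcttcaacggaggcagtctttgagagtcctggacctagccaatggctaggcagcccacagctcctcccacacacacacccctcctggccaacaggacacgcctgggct
Gja1: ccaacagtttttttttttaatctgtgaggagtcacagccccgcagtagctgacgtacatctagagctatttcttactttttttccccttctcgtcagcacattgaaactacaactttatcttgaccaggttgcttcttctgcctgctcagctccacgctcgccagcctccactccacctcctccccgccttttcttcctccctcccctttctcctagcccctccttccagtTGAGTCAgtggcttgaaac
Gjb2 held 2 GC boxes, at 211 to 206 and 126 to 121 bases before the start, and the last one overlaps an NF-κB match at 134 to 125. Gjb5 held an NF-κB match at 135 to 126 and a TATA match at 243 to 238. Gja1 held 1 AP-1 match at 19 to 13 bases before its start. Gjb6 held none of the 4 motifs in this window. Among 32841 promoter windows of the same length, 32.7% held a GC box, 6.75% an AP-1 site, 12.4% a TATA match and 7.25% an NF-κB match. The Gjb2 window was 69.2% G and C, against 56.8% for Gjb6, 54.4% for Gjb5 and 50.0% for Gja1. With no match in its window, Gjb6 could share none with Gjb2, so the motifs do not compare these genes. Of the 4 motifs only NF-κB was matched in more than 1 window, in Gjb2, lower in HdR, and in Gjb5, higher. A match here is a description of letters, not of binding.

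Per transcript length, Gjb2 was the most abundant of the 4 connexins in every library. Its level per kb of reference transcript was 501 ± 18.0 aligned bases per Mb per kb in HdR and 629 ± 36.3 in WT (SD, n = 4 each). Gja1 came next, at 149 ± 2.50 in HdR and 166 ± 11.8 in WT. Gjb6 was at 41.2 ± 5.17 in HdR and 55.9 ± 7.39 in WT. Gjb5 was the lowest, at 17.0 ± 1.30 in HdR and 14.8 ± 1.55 in WT. The libraries of neighbours in this order did not overlap in either genotype. The distance of Gja1 from Gjb6 depends on the length used, because its 8 annotated transcripts span 10257 bases of exon against 3071 in the reference transcript. On the union of exons it was at 44.7 ± 0.749 in HdR and 49.7 ± 3.53 in WT, beside Gjb6 at 32.4 ± 4.07 in HdR and 44.0 ± 5.82 in WT. On that scale Gja1 and Gjb6 overlapped among WT libraries.

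**Figure D1:**
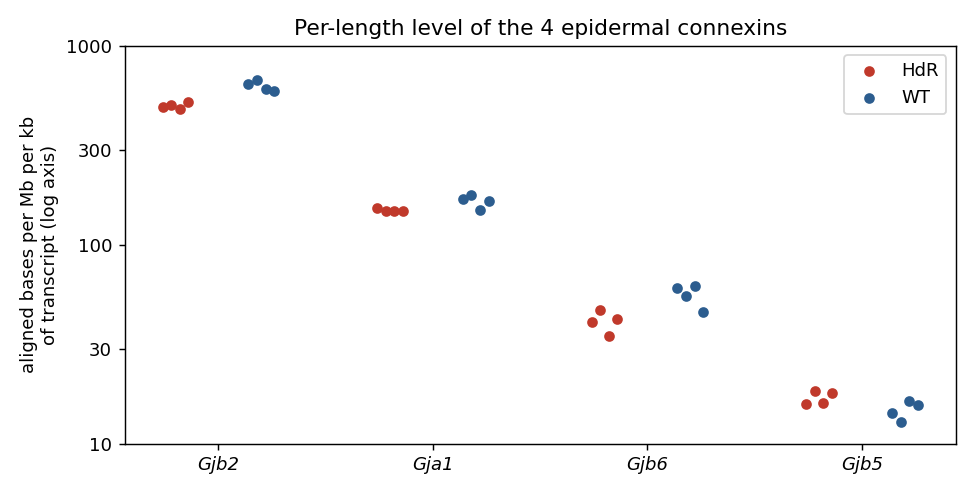
Level of the 4 connexins in aligned bases per Mb per kb of reference transcript on a log axis, with 1 point per library (HdR red, left; WT blue, right). Gjb2 is highest and Gjb5 lowest in every library.

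Gjb2 made up a slightly smaller share of the summed level of these 4 connexins in HdR. It held 70.2% to 71.6% of the summed per-length level in HdR libraries and 72.1% to 73.2% in WT libraries, and the groups did not overlap. With the union of exons the shares were 83.5% to 84.6% in HdR and 84.7% to 86.0% in WT, nearly touching. Gjb5 held 2.24% to 2.55% in HdR and 1.40% to 1.96% in WT on reference transcripts. The summed level itself was 709 ± 22.3 aligned bases per Mb per kb in HdR and 865 ± 45.4 in WT (SD, n = 4 each).

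All 4 connexins passed the test between genotypes, 3 lower and 1 higher in HdR, by small amounts. The test was limma on log2 values, with Benjamini-Hochberg adjustment over the 11870 genes and a call at adjusted p under 0.05. It called 45.0% of all genes tested, 21.2% higher and 23.8% lower, so a call is common in these data. The median log2 fold change of the 4 genes was -0.24, beside -0.01 for all genes tested. HdR and WT values did not overlap for 1 of the 4, Gjb2, and for 41.1% of all genes, 21.3% with HdR below and 19.8% with HdR above. When the change had to exceed a fold of 1.2, limma's treat called 0 of the 4 genes and 7.47% of all genes. In bulk RNA, fewer cells of a type and less RNA per cell cannot be told apart.

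Gjb2 was lower in every HdR library. Its coverage was 1192, 1214, 1156 and 1260 aligned bases per Mb in HdR 1 to 4 and 1546, 1618, 1464 and 1422 in WT 1 to 4. The highest HdR library stayed below the lowest WT library, WT 4. The means were 1206 ± 43.4 in HdR and 1513 ± 87.2 in WT (SD, n = 4 each), and the log2 difference was -0.33 ± 0.041 (SE, limma adjusted p = 6.99e-06), so that the level fell by 20.2%. Without WT 4 the log2 fold change was -0.36 (limma adjusted p = 4.52e-06). A larger absolute change was seen in 19.7% of the genes tested, and 0.455% of them had higher coverage than Gjb2.

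Gjb6, which lies near Gjb2 on chromosome 14, was lower on average, with overlapping groups. HdR 1 to 4 had 86.3, 99.2, 72.8 and 88.7 aligned bases per Mb, and WT 1 to 4 had 127, 116, 131 and 96.2. WT 4 lay below HdR 2, and the other WT libraries lay above all HdR libraries. The means were 86.8 ± 10.9 in HdR and 118 ± 15.6 in WT (SD, n = 4 each), a difference of -0.43 ± 0.13 in log2 level (SE, limma adjusted p = 0.0295). This SE was the largest of the 4 genes. Without WT 4 the log2 fold change was -0.53 (limma adjusted p = 0.00188). The call was lost without HdR 1 (limma adjusted p = 0.0643), HdR 4 (0.055), WT 1 (0.0706), WT 2 (0.0756) or WT 3 (0.0827), while the log2 fold change stayed between -0.45 and -0.38 in these 5 fits.

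Gjb5 was the only one of the 4 that was higher in HdR. Its coverage was 27.2, 31.5, 27.7 and 31.0 aligned bases per Mb in HdR 1 to 4 and 24.6, 22.2, 28.3 and 26.8 in WT 1 to 4. WT 3 lay above HdR 1 and HdR 3, and the other WT libraries lay below all HdR libraries. The means were 29.3 ± 2.23 in HdR and 25.4 ± 2.66 in WT (SD, n = 4 each), a difference of 0.20 ± 0.074 in log2 level (SE, limma adjusted p = 0.0361). The call was lost without HdR 2 (limma adjusted p = 0.113), HdR 4 (0.0999), WT 1 (0.0907) or WT 2 (0.129), with log2 fold changes of 0.14 to 0.19. Without WT 4 the log2 fold change was 0.23 (limma adjusted p = 0.0332), and without WT 3 it was 0.25 (0.00915). The call was also lost with no filter on low values (limma adjusted p = 0.0908).

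Gja1 was slightly lower in HdR. HdR 1 to 4 had 470, 455, 454 and 454 aligned bases per Mb, and WT 1 to 4 had 518, 547, 460 and 513. WT 3 lay among the HdR values, below HdR 1, and the HdR libraries were close together. The means were 458 ± 7.68 in HdR and 510 ± 36.2 in WT (SD, n = 4 each), a difference of -0.15 ± 0.044 in log2 level (SE, limma adjusted p = 0.00974), so that the level fell by 9.89%. A larger absolute change was seen in 50.5% of the genes tested. Without WT 4 the log2 fold change was -0.15 (limma adjusted p = 0.0229). It was -0.20 without WT 3 (limma adjusted p = 6.86e-05) and -0.12 without WT 2 (0.0254). Scaling by library totals alone ended the call, at -0.12 (limma adjusted p = 0.054), and upper-quartile scaling left it at -0.11 (limma adjusted p = 0.0498).

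**Figure D2:**
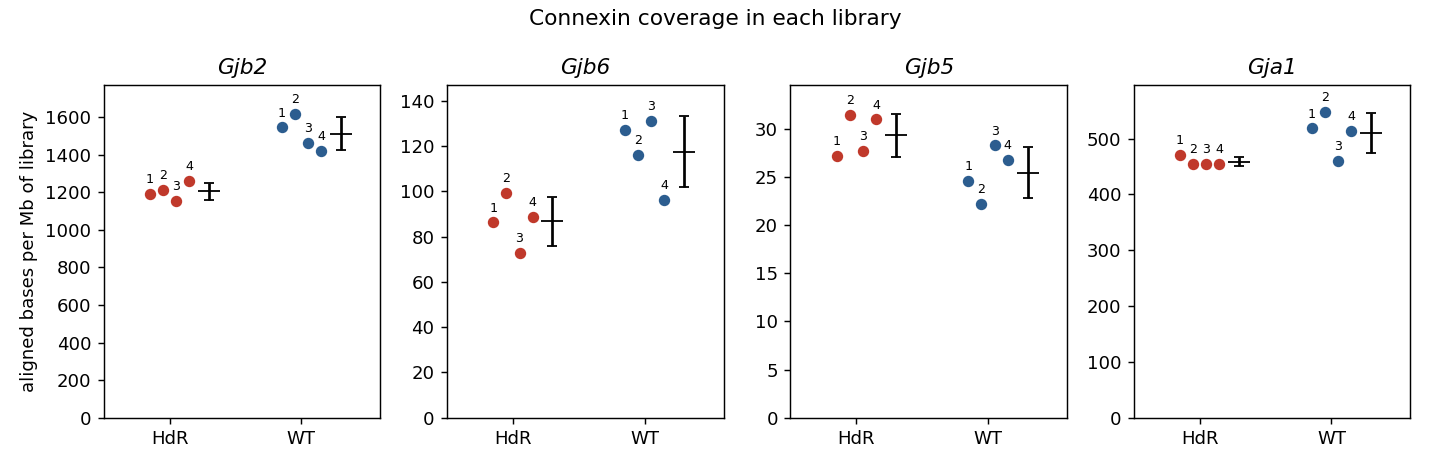
Coverage of Gjb2, Gjb6, Gjb5 and Gja1 in aligned bases per Mb of library, 1 point per library with its replicate number (HdR red, WT blue), and the mean with SD in black. The groups are apart for Gjb2, where HdR runs from 1156 to 1260 and WT from 1422 to 1618, and overlap for the other genes.

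Ratios of connexins within a library do not depend on depth scaling apart from the pseudocount. The log2 ratio of Gjb5 to Gjb2 was -5.40, -5.22, -5.34 and -5.30 in HdR 1 to 4 and -5.92, -6.13, -5.65 and -5.68 in WT 1 to 4. It was higher in every HdR library, by 0.53 on average (exact permutation test over 70 regroupings, two-sided p = 0.0286, the smallest that 4 against 4 allows). Adjusted over the 3 ratios computed, that p was 0.0857 and did not pass (exact permutation test). With only 1 of the 3 ratios at the smallest p, the adjusted value cannot fall under 0.05, so the adjustment decides nothing here. The log2 ratio of Gja1 to Gjb2 was -1.39 ± 0.0619 in HdR and -1.57 ± 0.0819 in WT (SD, n = 4 each), a difference of 0.18, and HdR 4 and WT 4 both lay at -1.47 (exact permutation test, p = 0.0571, adjusted p = 0.0857). The log2 ratio of Gjb6 to Gjb2 was -3.79 ± 0.153 in HdR and -3.68 ± 0.181 in WT, a difference of -0.11 that lay within the spread between libraries (exact permutation test, n = 4 each, p = 0.4, adjusted p = 0.4). Unequal change of Gjb2 and Gjb6 was thus not detected, which does not show that they changed alike.

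Of the other connexins and pannexins analysed here, 12 had a row and 1 passed the filter, Panx1. Panx1, which encodes a channel of the related pannexin family, was at 60.9 ± 1.56 in HdR and 58.8 ± 2.16 in WT, a difference of 0.05 ± 0.044 in log2 level (SE, n = 4 each, limma adjusted p = 0.374).

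The remaining 11 were close to 0, with means over the 8 libraries of at most 0.398 aligned bases per Mb, and Gja6 was listed at 0 in every library. The highest of them was Gjb1, which encodes a connexin best known from liver and myelin. It was listed at 0 in 3 HdR libraries and had 0.235 aligned bases per Mb in HdR 2, against 0.859, 0.800, 0.719 and 0.573 in WT 1 to 4. Every WT library held 9.71 to 14.1 read-pair equivalents of it and every HdR library at most 2.81, so this difference rests on few reads, and the HdR libraries were the shallower. Gjb1 did not reach the filter, and with no filter limma gave it an adjusted p of 1.90e-04, while Gja3, Gja4, Gja5, Gja10, Gjc1, Gjc3, Gjd3, Panx2 and Panx3 were not called.

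The genes with the most similar pattern were ranked by Pearson's r of log2 level over the 8 libraries, among 8612 genes with a mean of at least 10 aligned bases per Mb. The libraries fall into HdR and WT, so r also carries the genotype difference, and it is given as a description. For Gjb2 they were Slc30a4, a zinc transporter, Stard5, a lipid transfer protein, and Slc25a28, a mitochondrial iron transporter, each at r = 0.994. All 3 were lower in HdR without overlap, which choice by r with Gjb2 favours, beside 21.3% of all genes tested. Stard5 was at 18.2 ± 1.39 in HdR and 33.6 ± 4.45 in WT (SD, n = 4 each). For Gjb6 they were Sprr2d, a cornified envelope protein (r = 0.992), Klf4, a transcription factor of epidermal barrier formation (0.990), and Ephx3, an epoxide hydrolase (0.987). Sprr2d had 81.2, 97.5, 54.5 and 84.5 aligned bases per Mb in HdR 1 to 4 and 178, 145, 217 and 100 in WT 1 to 4, with WT 4 the lowest WT library and HdR 3 the lowest of all, as for Gjb6. Sprr2d belongs to a family of close copies, so its reads may be shared. For Gjb5 they were Fam122a (0.983), the general transcription factor gene Gtf2f2 (0.977) and the mitochondrial ribosome gene Mrpl58 (0.973), of which Mrpl58 passed the test. For Gja1 they were the DNA repair gene Brca2 (0.988), Setd5 (0.980) and the noncoding RNA gene Particl (0.980), all called lower in HdR with changes of -0.23 to -0.19. With each library left out in turn, the calls of Brca2 and Particl were lost in 7 of 8 fits, that of Sprr2d in 6 and that of Mrpl58 in 2.

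Genes whose proteins bind, move, degrade or phosphorylate connexins, mostly known from work on Cx43, were counted in 3 lists. Of 10 scaffold and adhesion genes tested 5 were higher and 1 lower in HdR, with a median log2 fold change of 0.10, beside 21.2% higher and 23.8% lower among all genes tested. Tjp1, which encodes a scaffold of the zonula occludens family that binds the Cx43 tail, rose to 200 ± 3.73 aligned bases per Mb in HdR, against 177 ± 7.60 in WT (SD, n = 4 each). Tjp3, a weakly covered member of that family, was at 1.34 ± 0.197 in HdR and 3.63 ± 0.216 in WT, a difference of -0.98 ± 0.11 in log2 level (SE, limma adjusted p = 2.36e-06) that depends on the pseudocount: it was -1.38 with 0.1 and -0.44 with 5, both called. Ctnnd1, which encodes the adherens junction protein p120-catenin, was higher by 0.18 ± 0.038 (log2, SE). Dbn1, which encodes the actin-binding protein drebrin, was at 3.99 ± 0.370 in HdR and 2.65 ± 0.640 in WT, a difference of 0.46 ± 0.13 in log2 level (SE, n = 4 each, limma adjusted p = 0.00665) that was 0.24 with a pseudocount of 5, still called.

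Of 10 trafficking and turnover genes tested none was higher and 3 were lower, with a median log2 fold change of -0.03, and the lower share is near the 23.8% of all genes called lower. Cnst encodes consortin, a trans-Golgi receptor that sends connexins to the cell surface. It was at 9.48 ± 0.752 aligned bases per Mb in HdR and 14.0 ± 1.02 in WT (SD, n = 4 each), a difference of -0.52 ± 0.082 in log2 level (SE, limma adjusted p = 6.35e-05). The autophagy receptor gene Sqstm1 and the endosomal sorting gene Tsg101 were lower by -0.57 ± 0.098 and -0.16 ± 0.038 (log2, SE). Trim21, a ubiquitin ligase gene, was at 1.84 ± 0.365 in HdR and 1.54 ± 0.131 in WT and did not pass. Of 12 kinase genes tested 6 were higher and 3 lower, with a median log2 fold change of 0.08, beside 21.2% higher and 23.8% lower among all genes tested. Akt1 and Cdk1 were higher, by 0.25 ± 0.036 and 0.23 ± 0.044, and Csnk1d, a casein kinase gene, and Mapk3, which encodes a MAP kinase of the ERK pathway, were lower, by -0.19 ± 0.032 and -0.40 ± 0.073 (log2, SE). With treat at a fold of 1.2, the calls were 0 scaffold genes higher and 1 lower, 1 trafficking gene lower, and 0 kinase genes in either direction. The number of scaffold genes called higher was 3 without HdR 2 and 3 without HdR 4. It was 6 without WT 4, 6 with library totals and 7 with upper-quartile scaling. Tjp3 and Dbn1 did not reach the stricter filter.

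**Figure D3:**
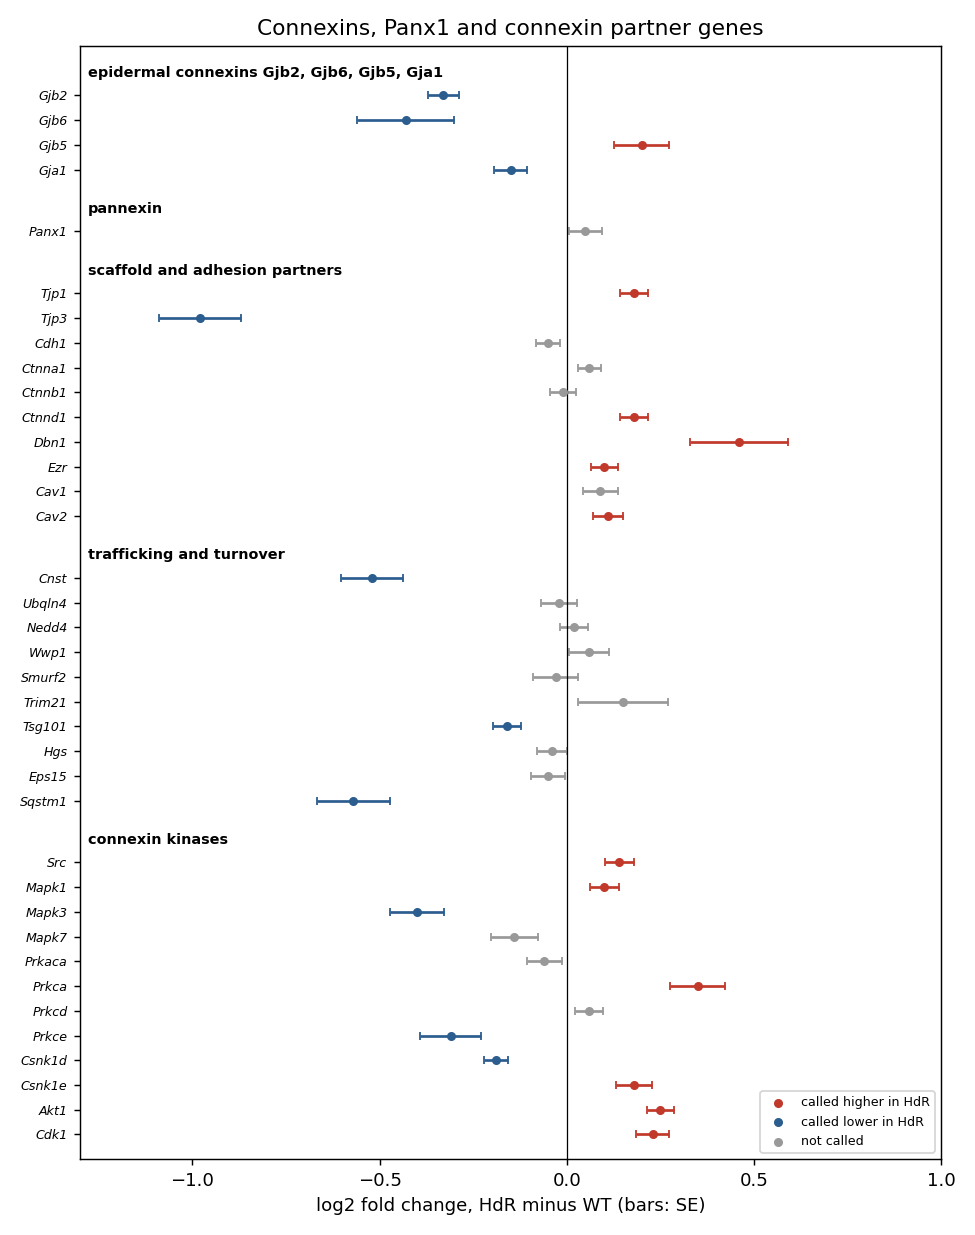
Log2 fold change (HdR minus WT) with its SE for the 4 connexins, Panx1 and the tested genes of the 3 partner lists; red is called higher in HdR, blue called lower, grey not called. Tjp3 at -0.98 lies farthest from 0, and Gjb2, Gjb6 and Gja1 lie left of 0.

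Markers of the labelled cell type were strong in all libraries: the basal keratin genes Krt5 and Krt14 had means of 17012 to 18576 aligned bases per Mb in either genotype. Most suprabasal markers were lower in HdR. Of 7 with a row 6 were called lower and none higher, beside 23.8% called lower among all genes tested. The other, Ivl, had the higher mean in HdR, 26.0 ± 2.02 against 20.8 ± 5.23 in WT, and was not called. The summed level of the 7 was 1516 to 1741 in HdR libraries and 2177 to 2897 in WT libraries. Of 7 basal markers 4 were called higher and none lower, beside 21.2% called higher among all genes tested. Among those called, Krt5 and Col17a1 overlapped between the groups. The basal sums, mostly Krt5 and Krt14, were 41181 to 42511 in HdR and 38221 to 41523 in WT. Krt14 was not called, at 17012 ± 212 in HdR and 17480 ± 1452 in WT. Melanocyte markers summed to 26.2 to 28.6 in HdR and 50.3 to 57.9 in WT. Of 6 tested 5 were called lower, beside 23.8% of all genes tested. Fibroblast markers summed to 2.47 to 5.80 in HdR and 2.30 to 4.33 in WT. The 1 tested of 7, Thy1, was lower, at 2.13 ± 0.256 in HdR and 3.16 ± 0.746 in WT, with overlapping groups. Untested Col1a1 and Col3a1 were highest in HdR 2, at 1.42 and 0.844. Dcn was at 0 in all HdR libraries and above 0 only in WT 1, at 0.0572. Col1a2 was at 0 in all WT libraries and in HdR 1 and HdR 3. None of 4 endothelial markers reached the filter, and they summed to 1.54 to 2.14 in HdR and 0.663 to 1.17 in WT. The immune markers Cd207 and Lyz2 were at 0 in every library, and the immune list summed to 3.13 to 4.47 in HdR and 4.28 to 6.58 in WT, nearly all of it Itgam, the 1 tested of 6, which was lower. Of the smooth muscle list Rgs5 was at 0 in every library, and the sum of 275 to 296 in HdR and 254 to 268 in WT was nearly all Acta2, the 1 tested of 4, which was higher. Hair follicle markers summed to 48.5 to 60.8 in HdR and 70.8 to 102 in WT, mostly from Krt75 and Tchh. These were the 2 tested of 6, and both were called lower, beside 23.8% of all genes tested. The part of these shifts in the connexin differences was not tested.

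**Figure D4:**
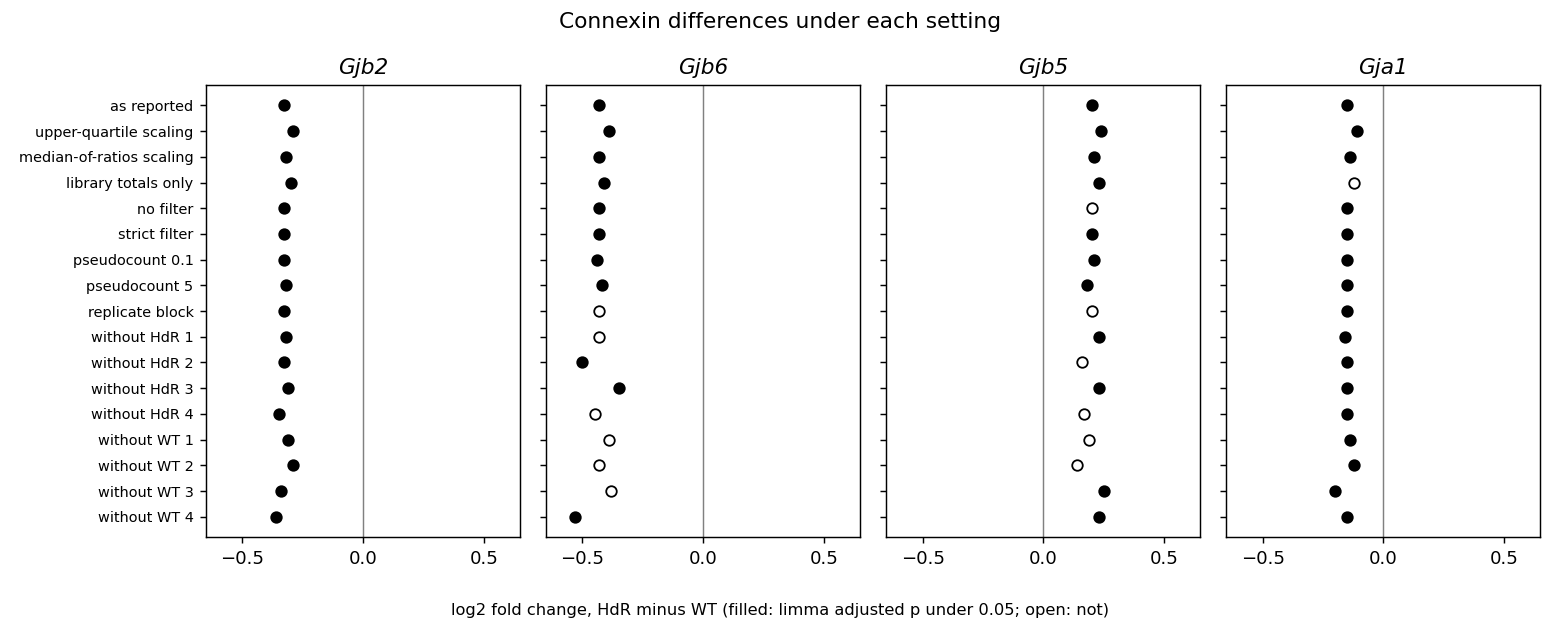
Log2 fold change (HdR minus WT) of each of the 4 connexins under each setting of the fit other than treat, filled where limma's adjusted p was under 0.05 and open where it was not. Each gene keeps its direction, and the calls of Gjb6 and Gjb5 turn open in several fits that leave out 1 library.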

How the data were processed

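RNA was taken directly from culture plates with the RNeasy mini kit and NEBNext Ultra II kits turned it into Illumina libraries, per the labels' protocols. Per the submitters' processing notes the genome was GRCm38; the aligner, counting tool, annotation and strand setting are not given in the sources used here. The authors deposited a table of signal (coverage), read here from the values as whole-number aligned bases summed per gene, with no depth or length scaling: the commonest non-zero values were 302, 604 and 906, and among values below 10 times the first, 16.9% were exact multiples of it, so they are not read counts. No count-based interval is therefore given.

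Columns were mapped to samples by library name, and replicates compared: log2 levels correlated at 0.9952 to 0.9966 within HdR and 0.9944 to 0.9967 within WT, and no pair was identical. Each library was scaled with trimmed-mean (TMM) factors, computed directly with trims of 30% and 5%, to aligned bases per Mb. Genes with a mean of at least 1 were fitted on log2(value + 1) with R 4.3.3, limma 3.58.1 and statmod 1.5.0 (eBayes with trend and robust variance), genotype as the only factor, two-sided, over 11870 genes. Fold changes are on that log2 scale, which understates those of genes near 1. Calculations were tested on simulated data. Per-length levels used GENCODE vM21, promoters RefSeq (all 4 matched). Figures used Python 3.11.15 and matplotlib 3.10.9.

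Named genes are the 4 connexins, Rbck1, the other connexins and pannexins with a row, up to 4 genes with the smallest p from each of 3 partner lists, and the 3 genes most like each connexin. Some genes that this rule or the lists hold are not reported here and were left out of the list counts; they stayed in the fit over all genes. The members and lists were chosen with earlier results of these data known. Alternatives were upper-quartile, median-of-ratios and total scaling, no filter and a stricter one (5 in 4 libraries), pseudocounts of 0.1 and 5, the replicate number as a block, treat against a fold of 1.2, and each library left out in turn.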

Additional observations from a re-analysis of the deposited data

Results flagged for a closer look

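Among 66 groups of 4 libraries checked, 1 held a library that lay far from the other 3, and chance flags about 1 in 20. Gja1 in HdR 1 was at 470 aligned bases per Mb, against 454 to 455 in the other HdR libraries, a gap that is wide only beside their narrow spread. Without HdR 1 the log2 fold change of Gja1 was -0.16 (limma adjusted p = 0.0183).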

How the results depend on the processing

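The 4 connexins kept their direction in all alternatives run. When each library was left out in turn, the log2 fold change ran from -0.36 to -0.29 for Gjb2, -0.53 to -0.35 for Gjb6, 0.14 to 0.25 for Gjb5 and -0.20 to -0.12 for Gja1, with limma adjusted p up to 1.39e-04, 0.0827, 0.129 and 0.035. Against a fold of 1.2 the treat test called none of them: Gjb2 at -0.33 (limma treat adjusted p = 0.498), Gjb6 at -0.43 (0.693), Gjb5 at 0.20 and Gja1 at -0.15 (both 1). It called 887 genes in all, 343 higher and 544 lower, against 5346, 2517 and 2829. Upper-quartile scaling called 3113 higher and 2278 lower, so 57.7% of calls were higher, against 47.1%. The labels do not say whether the replicate number pairs these samples. Deviations of same-numbered libraries correlated at -0.22 to 0.03. HdR 1 and HdR 4, but not HdR 2 and HdR 3, correlated best with their own number. With that number as a block, 4755 genes were called, and 3 scaffold genes were called higher, against 5. In that fit Gjb6 was at -0.43 (limma adjusted p = 0.0669) and Gjb5 at 0.20 (0.0611). No filter put Gjb5 at 0.20 (limma adjusted p = 0.0908), and library totals put Gja1 at -0.12 (0.054). The log2 ratios without 1 library ran from 0.43 to 0.59 for Gjb5 to Gjb2, -0.17 to -0.04 for Gjb6 to Gjb2 and 0.14 to 0.21 for Gja1 to Gjb2, the last reaching p = 0.0286 without WT 4 (exact permutation test). Within replicate numbers, as a block, the Gjb5 to Gjb2 ratio differed by 0.53 (exact sign-flip permutation test, p = 0.125, the smallest that 4 pairs allow). The causes were not tested. Gjb1 and the other connexins and pannexins under the filter rest on few reads, at most 14.1 read-pair equivalents in any library.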
